A study of Mus musculus with 24 samples.

Results

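Liver cells that had taken up dye-labelled liposomes were compared with cells of the same sort that had not, as an average over an empty and a curcumin-loaded liposome. The averaged contrast was the mean of the DiI-positive minus DiI-negative difference after empty liposomes and the same difference after curcumin liposomes. It set 6 DiI-positive against 6 DiI-negative libraries, with a mean for each of the 4 groups. Its members were all genes whose log2 values averaged 4 or more across the 12 libraries, 14227 of the 24874 genes not listed at 0 in every library. Of these, 1722 passed the threshold (limma, Benjamini-Hochberg adjusted p under 0.05 over the 14227 genes), which is 12.1% of the genes tested. A set of 1103 genes passed in the average and in neither liposome arm alone, and these are the genes the results below turn on.

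The cells came from the livers of female C57BL/6 mice. All mice had eaten a methionine- and choline-deficient (MCD) diet for 2 weeks, which induces steatohepatitis, so no group stands for a healthy liver. All had received liposomes with the lipophilic dye DiI by the intravenous route 24 hours before the sort, either empty or carrying curcumin, a plant polyphenol, so no group is free of liposomes. From the CD11c+ MHC class II+ cells, DiI-positive and DiI-negative ones were collected apart, and each of the 4 groups held 3 libraries. The labels hold 24 records for 12 library codes, and each code was counted as 1 library. It is not given in the sources used here whether the libraries within a group stand for different mice or for pools. The p-values therefore rest on the spread among these libraries, which may be technical.

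As background, liposomes injected into blood are taken up in the liver chiefly by Kupffer cells, the resident macrophages of the sinusoids, and by other phagocytes. Cells that engulf lipid particles break them down in lysosomes, and cholesterol derivatives then act through the nuclear receptors LXR, which raise genes of cholesterol export, and through the SREBP system, which lowers genes of sterol synthesis when sterol is plentiful. CD11c and MHC class II define conventional dendritic cells (cDC1 and cDC2), but macrophages, monocytes, B cells and activated natural killer (NK) cells can carry one or both, so a sort on these proteins can hold all of them.

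The genes of the sort were high in both gates. Cd74, the class II invariant chain, had a median of 19.21 over the DiI-positive and of 19.23 over the DiI-negative libraries on the deposited log2 scale, and Ptprc, the pan-leukocyte marker CD45, had a median of 15.16 in each. Itgax, which encodes CD11c, lay between 12.01 and 13.24 in DiI-positive and between 12.95 and 13.48 in DiI-negative libraries and did not pass (-0.53 ± 0.17, adjusted p = 0.075). The class II chain H2-Ab1 fell slightly (-0.22 ± 0.06 SE, adjusted p = 0.036), and this call held in 3 of the 12 fits that each left out 1 library. Defining genes of other cell types were also present: the mean log2 level of 19 Kupffer cell markers ran from 10.12 to 12.11 in DiI-positive and from 8.95 to 9.51 in DiI-negative libraries. That of 16 B cell markers ran from 11.999 to 13.13 and from 11.25 to 11.93, and that of 17 NK and cytotoxic markers from 7.93 to 8.68 and from 9.23 to 9.87. Replicate 3 of both curcumin gates stood apart, with the highest cDC1 marker levels (11.07 and 11.54) and the lowest B cell marker levels (11.999 and 11.25) of its gate. A relative depth index read from the lowest values varied 1.61-fold between libraries and was 0.797 to 1.11 in DiI-positive and 0.997 to 1.28 in DiI-negative libraries; 5 of the 6 DiI-positive libraries lay below every DiI-negative one.

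The average called 788 genes higher in DiI-positive cells (5.54% of those tested) and 934 lower (6.56%), 223 of them by more than 1 on the log2 scale. The empty arm called 419 genes (2.95%) and the curcumin arm 437 (3.07%). Each arm was a contrast in the fit of all 12 libraries, so both arms used the same estimate of spread. Fitted alone on its own 6 libraries, the empty arm called 617 genes and the curcumin arm 40. The average added 1309 genes to the calls of the empty arm and 1294 to those of the curcumin arm. Of the 1722 genes, 222 were also called in both arms, 191 in the empty arm only, 206 in the curcumin arm only and 1103 in neither. The last set is 7.75% of all genes tested and 64.1% of the calls of the average, with 507 genes higher and 596 lower. The arm counts depended on single libraries. The empty arm called from 85 genes without empty DiI-negative replicate 1 to 659 without curcumin DiI-positive replicate 3, and the curcumin arm from 114 without curcumin DiI-negative replicate 1 to 1088 without curcumin DiI-positive replicate 3. Without 1 library at a time the average called from 1149 to 2244 genes, and from 770 to 1022 genes in neither arm. In the other direction, 15 genes were called in an arm and not in the average.

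The average shares all its libraries with the arms, so these counts describe how the calls nest and are no second line of evidence. The arms share no library with each other. Their tests do share 1 estimate of the spread from all 12 libraries, so p-values of the arms are not independent. The standard error of the average is that of an arm divided by the square root of the number of arms, and its median over genes was 0.114 against 0.162 for an arm. The added genes were smaller changes: their median size was 0.47 on the log2 scale, against 0.97 for genes called in both arms and 0.63 for genes called in 1 arm. Their sizes ran from 0.14 to 3.06, and 62 exceeded 1. In 730 of the 1103 genes both arms had an unadjusted p under 0.05, and in 532 at least 1 arm had an adjusted p under 0.1. All 1103 had the same sign in both arms, which the choice of genes nearly fixes. In 312 of them (125 higher and 187 lower) the 6 DiI-positive values did not overlap the 6 DiI-negative values, and 6.04% of all genes tested were separated in this way. No gene passed the test of the difference between the arms (limma, the smallest adjusted p was 0.999), and 527 genes had an unadjusted p under 0.05 in it.

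**Figure D1:**
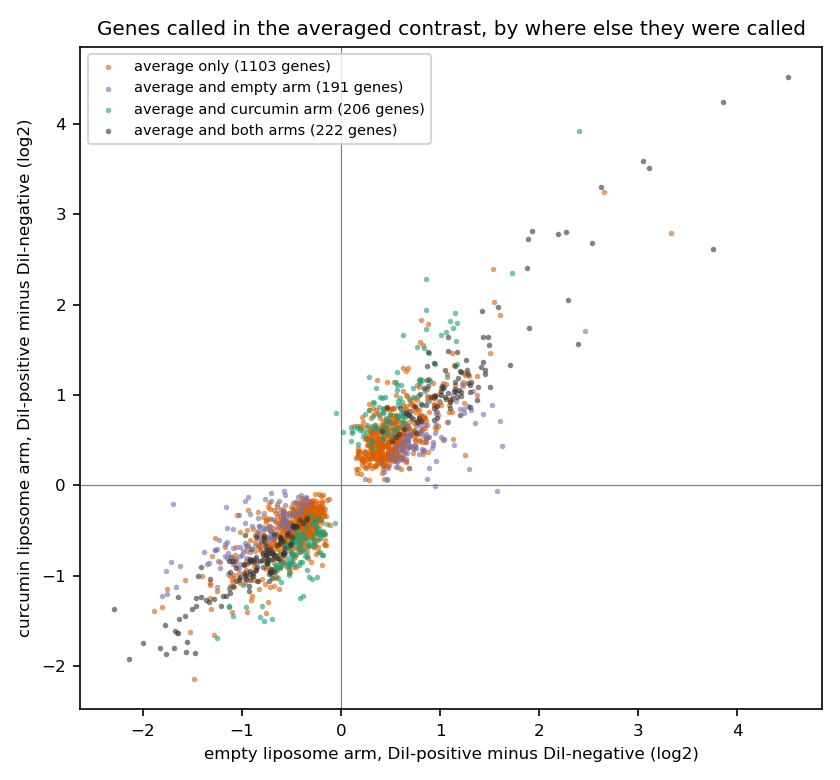
Each point is 1 of the 1722 genes called in the averaged contrast. The horizontal axis gives its log2 difference between gates after empty liposomes and the vertical axis that after curcumin liposomes. The 1103 genes called in the average only lie mostly nearer the origin than the 222 called in both arms.

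Depth moved with the gate, and its part in these calls was not tested beyond 1 alternative fit. The index itself is rough, since it rested on 2 genes (curcumin DiI-positive replicate 1) to 89 genes (curcumin DiI-negative replicate 3) per library. With the depth index as a covariate 432 genes were called in the average, among them 410 of the 1722 and 216 of the 222 called in both arms, but 66 of the 1103 added genes. All 1103 kept their sign; their median size was 0.42 in place of 0.47, and the standard error of the average rose 1.31-fold in the median gene. The 66 genes include Adamts14, Cd300e, Adgb, Arhgef12, Adam8, Abcg1, Gpnmb, Myd88, Ube2c and Ccna2, all described below. Every count of added genes below comes from the fit without the covariate.

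**Figure D2:**
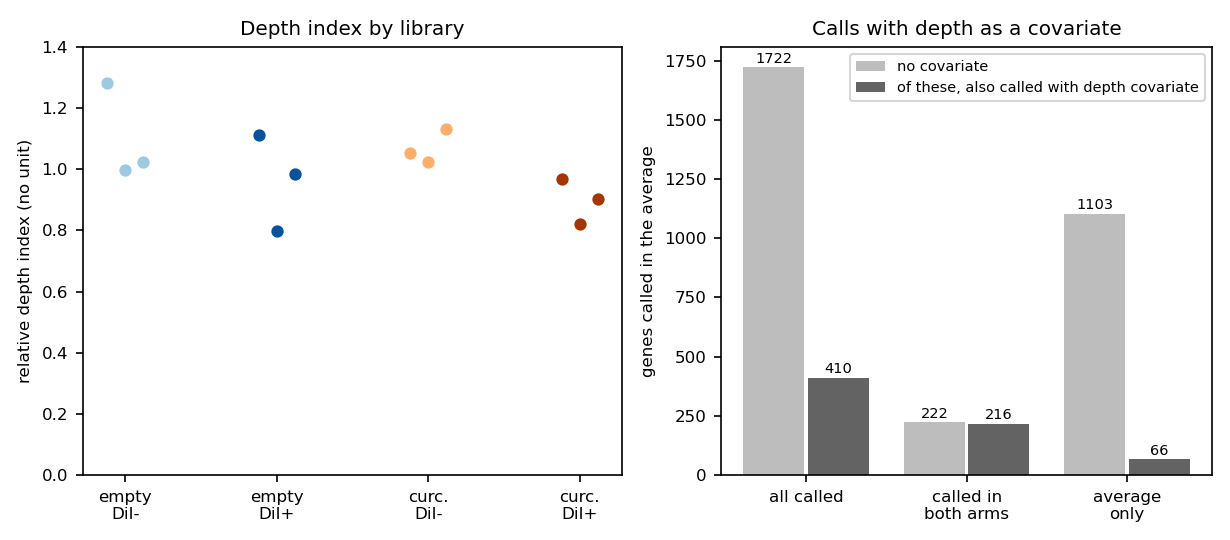
The left panel gives the relative depth index (no unit) of each of the 12 libraries by liposome and gate, 3 points per group. The right panel gives the number of genes called in the average without the covariate (light bars) and how many of those stayed called with it (dark bars): 410 of 1722 in all, 216 of 222 called in both arms and 66 of 1103 called in the average only.

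Genes known from Kupffer cells rose. Of the 19 tested, 16 were called higher and none lower in the average, with a median difference of 2.37, where the median of all genes was 0.005; the largest, Clec4f, Marco, Vsig4 and Cd5l, were already called in each arm. The average added Timd4, Adgre1, Nr1h3 and Axl. Timd4, a receptor for phosphatidylserine on resident macrophages (GRCm38 coordinates here and below, chromosome 11, 46810800 to 46844332), had its lowest value at 5.85, its median at 9.35 and its highest at 10.34 in DiI-positive libraries. In DiI-negative libraries these were 5.59, 5.63 and 7.74. Empty DiI-positive replicate 1 was close to the DiI-negative level and curcumin DiI-negative replicate 3 was high, so the gates overlapped. Its averaged difference was 2.95 ± 0.64 (adjusted p = 0.013), against adjusted p-values of 0.14 and 0.078 in the empty and curcumin arm. Adgre1, which encodes the macrophage marker F4/80, lay between 13.69 and 14.81 (median 14.06) in DiI-positive and between 12.48 and 13.55 (median 13.33) in DiI-negative libraries, with no overlap. It rose by 0.94 ± 0.21 (adjusted p = 0.015). With the depth covariate 12 of the 19 markers were called, and without curcumin replicate 3 of both gates 16. In sorted bulk samples, more cells of a type and more RNA per cell cannot be told apart. This holds here and for every marker, pathway list and single gene below.

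The list of receptors that bind apoptotic cells and modified lipoproteins overlaps the Kupffer cell list, with Marco, Timd4, Axl and Cd163 in both. Lists below overlap in other genes too, such as Nr1h3 and Vsig4, so their counts are not separate results. In the scavenger and efferocytosis list 7 of 19 genes rose and none fell (median 0.56), of which the average added 4: Timd4, Axl, Cd36 and Stab2. Under the depth covariate 2 of the 19 were called. Axl, a receptor tyrosine kinase that recognises dying cells through its ligand Gas6, rose by 0.66 ± 0.16 (adjusted p = 0.019) and was called in each of the 12 fits that left out 1 library. Stab2, a hyaluronan receptor best known from sinusoidal endothelium, had the largest difference of all added genes (3.06 ± 0.85, adjusted p = 0.038). Its DiI-positive values were widely spread, from 6.24 in curcumin replicate 1 to 12.02 in curcumin replicate 3, and its DiI-negative values ran from 5.48 to 8.58. The call of Stab2 held in 4 of the 12 fits that left out 1 library and that of the fatty acid translocase Cd36 (0.97 ± 0.26) also in 4. Of 16 sinusoidal endothelial markers 3 rose (median 0.58). Their mean level was 9.81 in curcumin DiI-positive replicate 3 and between 7.47 and 8.03 in the other 5 DiI-positive libraries. In DiI-negative libraries it was 8.03 in curcumin replicate 3 and 7.24 to 7.35 in the other 5. Without curcumin replicate 3 of both gates the Stab2 difference was 2.90 (adjusted p = 0.0121). The part of endothelial RNA in the Stab2 result was not tested.

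Several lipid handling genes rose, and not on the export side alone. Cd36, described above, rose. So did Lpl of the lipid-associated macrophage list (1.02, called in each of the 12 fits that left out 1 library). In the LXR target and lipid efflux list 8 of 13 genes rose and none fell (median 0.56), and the average added Abcg1 and Nr1h3 to Abca1, Apoc1, Pltp and Scd1, which both arms called. Abcg1, an exporter of cholesterol to high-density lipoprotein, lay between 10.44 and 10.76 in DiI-positive (median 10.69) and between 9.85 and 10.39 in DiI-negative libraries (median 10.09), without overlap. It rose by 0.56 ± 0.11 (adjusted p = 0.0075; 0.069 and 0.087 in the arms) and remained called with the depth covariate (0.68, adjusted p = 0.026). Nr1h3, which encodes LXR alpha itself, rose by 0.96 ± 0.24 (adjusted p = 0.023); this call ended without empty DiI-negative replicate 1 or without curcumin DiI-negative replicate 1. In the list of lipid-associated macrophage genes 9 of 16 rose and 1, the galectin gene Lgals3, fell (-0.37 ± 0.09, called in 6 of the 12 fits that left out 1 library), with Gpnmb, a transmembrane glycoprotein of lipid-laden macrophages, and Lipa, lysosomal acid lipase, among the added ones. Gpnmb ran from 11.29 to 12.47 in DiI-positive and from 10.60 to 11.55 in DiI-negative libraries and rose by 1.08 ± 0.23 (adjusted p = 0.011). Pparg, a lipid-sensing nuclear receptor, rose by 0.68 ± 0.16 (adjusted p = 0.018) with no overlap between the gates. It was 1 of 2 genes called among 16 of fatty acid oxidation and PPAR, a share (12.5%) close to the 12.1% of all genes.

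Of 24 lysosomal hydrolases and membrane proteins, 7 rose and none fell (29.2%, median 0.17), and 6 of the 7 were called in neither arm, where 64.1% of all calls of the average were. They were Acp2, Naglu, Lipa, Pla2g15, Gaa and the cholesterol transporter Npc1, while the acid phosphatase Acp5 was called in both arms. Acp2, lysosomal acid phosphatase, lay between 12.35 and 12.88 in DiI-positive and between 11.49 and 12.38 in DiI-negative libraries, overlapping slightly. It rose by 0.65 ± 0.14 (adjusted p = 0.013). Pla2g15, the lysosomal phospholipase A2, rose by 0.81 ± 0.19 (adjusted p = 0.017), Lipa by 0.60 ± 0.14 (0.016) and Naglu, a heparan sulfate hydrolase, by 0.53 ± 0.12 (0.016). These 4 calls held whichever library was left out. That of Gaa, acid alpha-glucosidase (0.42 ± 0.12), held in 2 of 12 such fits, and that of Npc1 (0.47 ± 0.11) in 9 of 12. With the depth covariate 1 of the 24 genes was called, and the list's median was 0.13. Without curcumin replicate 3 of both gates 7 of the 24 were called (median 0.095). Acp2, Pla2g15 and Naglu stayed called in that fit, and Lipa did not (0.49, limma adjusted p = 0.053). The vacuolar ATPase, the proton pump that acidifies the lysosome, had 1 of 17 subunits called, Atp6v0a1 (0.51 ± 0.11), and 3 of 23 genes of endocytosis and early endosomes were called, a share close to the 12.1% of all genes. Of these Snx2 rose while Snx1 (-0.26 ± 0.06) and the adaptor subunit Ap2a2 (-0.40 ± 0.11) fell. The call of Snx1 ended without curcumin DiI-negative replicate 1, and that of Ap2a2 held in 3 of the 12 fits that left out 1 library. Snx2, a sorting nexin that returns cargo from endosomes, ran from 13.39 to 14.04 in DiI-positive and from 13.02 to 13.36 in DiI-negative libraries and rose by 0.55 ± 0.10 (adjusted p = 0.0041; 0.051 and 0.055 in the arms).

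Among iron and heme genes 7 of 17 rose and none fell (median 0.27), and the average added Hmox1, Slc11a1, Hfe and Fth1. Of the 17, 4 were called without curcumin replicate 3 of both gates and 2 with the depth covariate. Hmox1, heme oxygenase 1, lay between 12.06 and 13.59 (median 12.67) in DiI-positive and between 11.38 and 12.58 (median 11.70) in DiI-negative libraries. It rose by 0.85 ± 0.21 (adjusted p = 0.021; 0.20 and 0.10 in the arms), a call that ended without empty DiI-negative replicate 2 or curcumin DiI-negative replicate 1. Hmox1 and Fth1, the ferritin heavy chain, were also the only members of the NRF2 target list to rise, of 17 tested, while Gsr, Tkt and Taldo1 of that list fell. Taldo1, transaldolase of the pentose phosphate pathway, fell by 0.31 (SE 0.07, adjusted p = 0.014) without overlap; the calls of Gsr and Tkt held in 3 and 2 of the 12 fits that left out 1 library. The other 3 iron genes moved less: Slc11a1, a phagosomal metal transporter, rose by 0.66 ± 0.18 (adjusted p = 0.033), Hfe by 0.44 ± 0.13 (0.043) and Fth1 by 0.31 ± 0.09 (0.047), and each was called in 4 or fewer of the 12 fits that left out 1 library.

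In the complement list 9 of 17 genes rose and 1 fell (median 0.93), and with the depth covariate 3 were called higher and 0 lower. Cfp, properdin, the positive regulator of the alternative pathway (chromosome X, 20925454 to 20931555), was called in neither arm (adjusted p = 0.13 and 0.096). Its values ran from 13.78 to 14.74 (median 13.99) in DiI-positive and from 13.23 to 13.53 (median 13.35) in DiI-negative libraries. The gates did not overlap, and the averaged rise was 0.80 ± 0.18 (adjusted p = 0.014). C3ar1, the receptor for the anaphylatoxin C3a, rose by 0.93 ± 0.25 (adjusted p = 0.031) with overlapping gates, and its call held in 5 of 12 fits that left out 1 library. Itgam, the alpha chain of complement receptor 3 (CD11b), fell. It lay between 12.36 and 12.89 in DiI-positive and between 12.95 and 13.35 in DiI-negative libraries, with no overlap, at -0.54 ± 0.10 (adjusted p = 0.0066; 0.088 and 0.061 in the arms).

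Transcription factors of liver macrophages moved both ways, with 4 of 18 higher and 2 lower. Spi1, which encodes the myeloid factor PU.1, ran from 12.77 to 13.08 in DiI-positive and from 13.15 to 13.52 in DiI-negative libraries. It fell in the average by 0.40 on the log2 scale (SE 0.08, adjusted p = 0.0077; 0.063 and 0.10 in the arms), without overlap between the gates. Maf and Tfec rose (0.80 ± 0.21 and 0.66 ± 0.17), but their calls held in 5 and 6 of the 12 fits that left out 1 library.

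**Figure D3:**
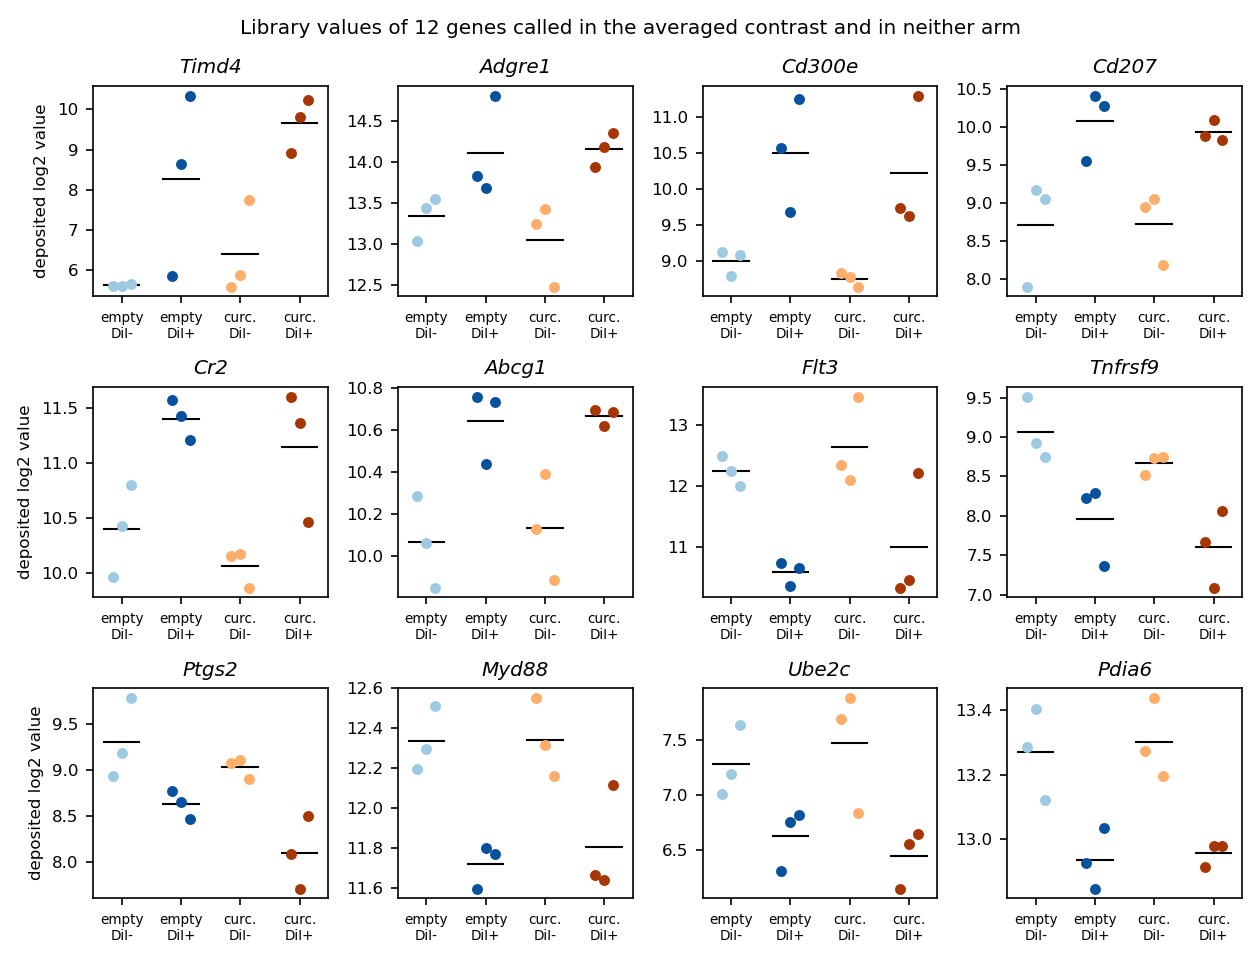
Deposited log2 values (vertical axes, each panel with its own range) of 12 genes called in the average and in neither arm, by liposome and gate. Points are libraries, 3 per group, and lines are group means. In each gene both DiI-positive group means lie on the same side of both DiI-negative ones. Timd4, Cr2 and Flt3 have libraries that overlap between the gates.

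Classical monocyte markers fell in 7 of 15 genes and rose in none (median -0.54); without curcumin replicate 3 of both gates 12 were called. The average added Chil3, Fn1 and Vcan to Ly6c2, Ccr2, F13a1 and Plac8. Chil3, a chitinase-like secreted protein, ran from 11.51 to 12.45 in DiI-positive and from 11.94 to 13.46 in DiI-negative libraries and fell (-1.04 ± 0.23, adjusted p = 0.015). Fn1, fibronectin (-0.68 ± 0.17), and Vcan, versican (-1.04 ± 0.30), were called in 5 and 2 of the 12 fits that left out 1 library. Of 12 nonclassical monocyte markers 3 rose and 1 fell, all 4 called in neither arm, with a median of 0.16 in the average and -0.03 in the empty arm. Cd300e, an activating receptor of patrolling monocytes (chromosome 11, 115051917 to 115062177), was the clearest of them. It lay between 9.63 and 11.30 (median 10.16) in DiI-positive and between 8.65 and 9.13 (median 8.82) in DiI-negative libraries. It rose by 1.48 ± 0.31 (adjusted p = 0.0098; 0.092 and 0.093 in the arms), was called without any single library, and remained so with the depth covariate (1.797, adjusted p = 0.035). Treml4 (0.58 ± 0.15) and Fabp4 (0.45 ± 0.12) rose, and the orphan receptor gene Nr4a1 fell (-0.54 ± 0.16), with calls that held in 7, 3 and 2 of the 12 such fits.

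Markers of conventional dendritic cells moved in both directions. Of 14 cDC1 markers 1 rose and 3 fell (median -0.51), and of 14 cDC2 markers 2 rose and 5 fell (median -0.12). Of the cDC2 falls, Cd209a (-2.03), Cd7 (-1.82) and Clec10a (-1.31) were called in each of 12 fits that left out 1 library. Among the added genes, Batf3, a transcription factor that cDC1 need to develop, ran from 8.74 to 9.50 in DiI-positive and from 9.56 to 9.97 in DiI-negative libraries. It fell (-0.54 ± 0.12, adjusted p = 0.017) without overlap. Naaa, a lysosomal amidase of cDC1, fell by 1.04 (SE 0.24, adjusted p = 0.018), with curcumin replicate 3 the highest library of each gate (12.33 and 13.03). Cadm1, a cDC1 adhesion molecule, rose (0.73 ± 0.21, adjusted p = 0.041), called in 4 of 12 fits that left out 1 library. Mgl2, a galactose lectin of cDC2, fell (-1.03 ± 0.30, adjusted p = 0.045) without overlap, called in 2 of 12. S1pr4, a sphingosine 1-phosphate receptor, rose by 0.57 ± 0.14, called in 7 of 12. Ltb, lymphotoxin beta, rose by 0.80 ± 0.17 (adjusted p = 0.011); it is listed as a cDC2 marker and is also abundant in B cells. With the depth covariate no cDC1 marker was called; without curcumin replicate 3 of both gates 8 of the 14 were, in place of 4.

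A further 3 genes of dendritic cell identity, chosen after their values were seen, were also added by the average. Flt3, the receptor that sustains dendritic cells, stood at 10.34 at the lowest, 10.56 at the median and 12.22 at the highest in DiI-positive libraries, and at 12.002, 12.30 and 13.47 in DiI-negative ones. Curcumin DiI-positive replicate 3 alone reached the DiI-negative range. The difference was -1.65 ± 0.32 (adjusted p = 0.0073; 0.077 and 0.076 in the arms), and the call held whichever library was left out. Zbtb46, a transcription factor of the conventional dendritic lineage, fell by 1.81 (SE 0.51, adjusted p = 0.040) and Mycl by 1.64 (SE 0.43, adjusted p = 0.029). Their calls held in 3 and 4 of the 12 fits that left out 1 library. Without curcumin replicate 3 of both gates Zbtb46 was at -2.07 (adjusted p = 0.0030). None of the 3 was called with the depth covariate (adjusted p = 0.11, 0.23 and 0.27 for Flt3, Zbtb46 and Mycl).

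Genes of antigen presentation moved in opposite directions. In the MHC class II list 3 of 14 genes rose and 2 fell (median 0.02). The average added H2-DMb2, a chain of the peptide exchange factor DM, which rose by 0.80 ± 0.15 (adjusted p = 0.0065; 0.060 and 0.085 in the arms). March1, a ubiquitin ligase that removes class II and CD86 from the surface, rose by 0.45 ± 0.11 (adjusted p = 0.020), and its call ended without empty DiI-negative replicate 2. Cd86, a costimulatory ligand for T cells, ran from 11.79 to 12.50 in DiI-positive and from 11.40 to 11.95 in DiI-negative libraries and rose by 0.44 ± 0.09 (adjusted p = 0.0098). In its list of costimulatory and inhibitory ligands 2 of 15 genes rose and 1, Havcr2, fell (-0.40, limma adjusted p = 0.028). The call of Havcr2 held in 5 of the 12 fits that left out 1 library. In the MHC class I list 4 of 17 genes fell and none rose, 3 of them added: the peptide transporter Tap1 (-0.30 ± 0.07) and the proteasome activators Psme1 and Psme2. Their calls held in 7, 2 and 6 of the 12 fits that left out 1 library.

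All 16 B cell markers tested rose (median 1.19). The arms together called 10 of them, and the average added Cd79a, Cd79b, Ighd, Cd22, Pax5 and Cr2. Cd79b, a signalling chain of the B cell receptor, stood at 13.69 at the lowest, 14.86 at the median and 15.02 at the highest in DiI-positive libraries, and at 12.87, 13.49 and 13.74 in DiI-negative ones. Only curcumin DiI-positive replicate 3 fell within the DiI-negative range. The rise was 1.24 ± 0.22 (adjusted p = 0.0041), with adjusted p-values of 0.054 and 0.053 in the arms. Its partner Cd79a rose by 1.25 ± 0.23, the immunoglobulin heavy chain Ighd by 1.24 ± 0.23 and Cr2, complement receptor 2 (CD21), by 1.04 ± 0.19, with adjusted p from 0.0050 to 0.0060. Pax5, the B lineage transcription factor, rose by 0.97 ± 0.20 (adjusted p = 0.0092), and Tnfrsf13c, the BAFF receptor, chosen after its values were seen, by 0.91 ± 0.17 (0.0058). All 7 were called whichever library was left out. With the depth covariate 8 of the 16 B cell markers were called, and none of the 6 added ones; without curcumin replicate 3 of both gates all 16 were. Of the 1103 added genes, 48 were immunoglobulin or T cell receptor segments, whose reads near-identical copies can share.

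Of 17 NK and cytotoxic markers 16 fell (median -1.31), and 10 were called lower with the depth covariate. The average added Txk, Eomes, Gzmb, Gzma and Fasl; the perforin gene Prf1 did not pass (-1.12 ± 0.38, adjusted p = 0.079). Txk, a kinase of T and NK cells, ran from 7.51 to 8.65 (median 8.30) in DiI-positive and from 8.81 to 9.77 (median 8.91) in DiI-negative libraries. It fell (-0.97 ± 0.19, adjusted p = 0.0083) without overlap, and the call held whichever library was left out. Eomes, a transcription factor of NK and effector T cells, fell by 0.89 (SE 0.22, adjusted p = 0.021), a call that ended without empty DiI-negative replicate 2 or curcumin DiI-negative replicate 1. The granzyme genes Gzmb (-1.31 ± 0.34) and Gzma (-1.12 ± 0.31) and the death ligand gene Fasl (-0.58 ± 0.17) were called in 7, 3 and 3 of the 12 fits that left out 1 library. T cell markers fell in 6 of 16 genes and rose in none, and the average added 3 of them; 2 of the 16 were called lower with the depth covariate.

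Basophil and mast cell markers fell in 9 of 12 genes (median -0.97), and 4 were called lower with the depth covariate. The average added Ms4a2, the beta chain of the high-affinity IgE receptor, Cpa3, carboxypeptidase A3, and Mcpt8, a basophil protease. Ms4a2 lay between 5.43 and 5.70 in DiI-positive and between 5.66 and 7.21 in DiI-negative libraries, where curcumin replicate 3 was the lowest. It fell (-1.203 ± 0.24, adjusted p = 0.0092), as did Cpa3 (-0.84 ± 0.19, adjusted p = 0.016). The call of Mcpt8 (-0.46 ± 0.12) held in 5 of the 12 fits that left out 1 library. No neutrophil marker was called among 13 by limma (median -0.53), where 4 had an unadjusted p under 0.05; without curcumin replicate 3 of both gates 4 were called (median -0.63). Of 14 hepatocyte markers 3 rose, all added: Ahsg (0.61 ± 0.15), Fgg (0.50 ± 0.13) and Fga (0.39 ± 0.10), secreted plasma proteins of the liver. The list had 6 genes called without curcumin replicate 3 of both gates and 0 with the depth covariate (median 0.11 in place of 0.30). The calls of Ahsg, Fgg and Fga held in 9, 7 and 3 of the 12 fits that left out 1 library; for Ahsg it ended without empty DiI-positive replicate 2, empty DiI-negative replicate 1 or empty DiI-negative replicate 2.

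**Figure D4:**
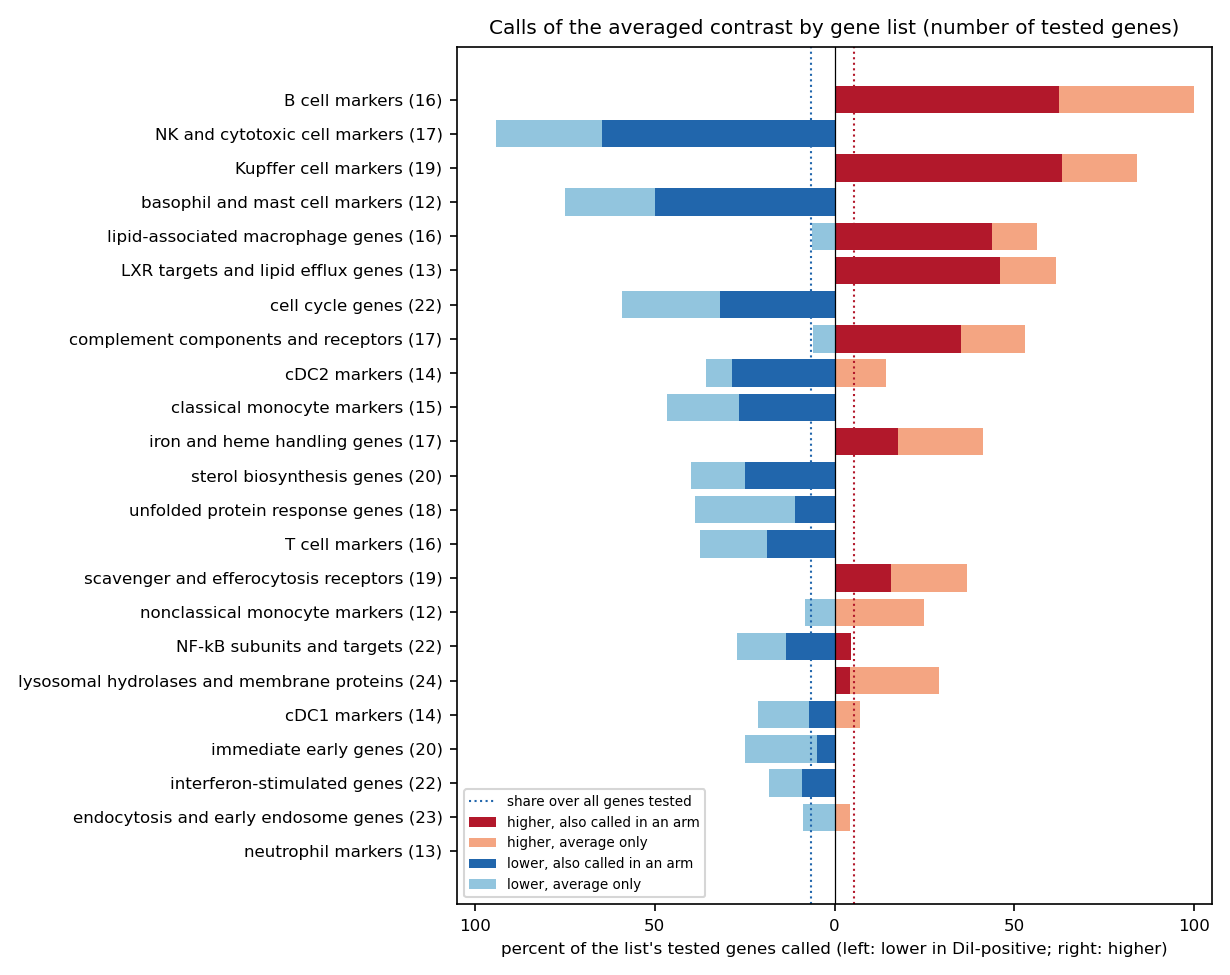
For 23 gene lists (number of tested genes in parentheses), bars give the percent of tested genes called in the averaged contrast, to the right for higher and to the left for lower in DiI-positive cells. Dark segments are genes also called in an arm and light segments genes called in the average only. Dotted lines give the shares over all genes tested, 5.54% higher and 6.56% lower. B cell, NK and Kupffer cell markers have the longest bars, and light segments make up most of the lysosomal, unfolded protein response and nonclassical monocyte bars.

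Sterol synthesis genes fell. Of 20 genes, 8 fell and none rose (median -0.34), of which Sqle and Hmgcs1 were called in both arms, Mvd and Cyp51 in the curcumin arm, and 3 in neither. The added ones included Msmo1 and Srebf2. Msmo1, a sterol C4 demethylase, ran from 9.29 to 9.63 in DiI-positive and from 9.72 to 10.17 in DiI-negative libraries. It fell by 0.40 (SE 0.09, adjusted p = 0.015) without overlap, whichever library was left out. Srebf2, which encodes SREBP2, the transcription factor of this pathway, ran from 11.25 to 11.50 against 11.55 to 12.01 and fell by 0.34 (SE 0.09, adjusted p = 0.028). The call of Srebf2 held in 6 of the 12 fits that left out 1 library. With the depth covariate 3 of the 20 genes were called.

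Genes of the unfolded protein response fell in 7 of 18 and rose in none (median -0.26), and 5 of the 7 were called in neither arm: Pdia6, Pdia3, Sdf2l1, Xbp1 and Hsp90b1. As background, many chaperone genes of the endoplasmic reticulum carry the ER stress response element, which the transcription factors ATF6 and XBP1 bind. That element was searched as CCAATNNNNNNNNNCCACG on both strands of the 250 bases before the annotated start, in RefSeq windows of GRCm38.p6. It was present in 7 of the 16 genes of the list that had a window, and in 0.151% of 9933 tested genes with one. Because the list holds known genes of this response, that higher share follows from the choice of list and is no result of these data. Of the 7, Pdia6, Hsp90b1 and Calr were called lower, and Canx, Hspa5, Creld2 and Dnajc3 were not called. Those 3 of 7 stand beside 7 of 18 called in the whole list. The windows of Pdia6 (chr12:17266339-17266588, plus strand) and Hsp90b1 (chr10:86705445-86705694, minus strand) are given 5′ to 3′ to show the shared element, chosen because both are added genes that hold it. Capitals mark the fixed bases of each match; Hsp90b1 has a match on each strand.
Pdia6: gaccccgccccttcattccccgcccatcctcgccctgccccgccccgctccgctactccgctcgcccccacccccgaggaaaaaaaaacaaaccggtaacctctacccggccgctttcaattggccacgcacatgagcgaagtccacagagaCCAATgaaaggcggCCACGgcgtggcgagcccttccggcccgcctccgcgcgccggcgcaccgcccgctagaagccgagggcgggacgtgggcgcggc
Hsp90b1: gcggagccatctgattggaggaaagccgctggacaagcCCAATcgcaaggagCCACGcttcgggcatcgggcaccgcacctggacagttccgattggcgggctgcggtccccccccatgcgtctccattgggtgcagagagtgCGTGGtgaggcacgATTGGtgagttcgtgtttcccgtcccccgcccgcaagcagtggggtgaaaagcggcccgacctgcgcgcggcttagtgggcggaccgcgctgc
A match describes the letters of the window and does not show that the element acts in these cells.

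Pdia6, a disulfide isomerase, ran from 12.85 to 13.03 (median 12.95) in DiI-positive and from 13.12 to 13.44 (median 13.28) in DiI-negative libraries. It fell by 0.34 (SE 0.07, adjusted p = 0.0092; 0.096 and 0.083 in the arms) without overlap. Pdia3, which loads class I molecules, fell by 0.39 (SE 0.08), Sdf2l1 by 0.41 (SE 0.09) and Xbp1 by 0.38 (SE 0.09), with adjusted p from 0.012 to 0.017. Those 4 calls held whichever library was left out. Hsp90b1, a chaperone of Toll-like receptors and integrins, fell by 0.24 (SE 0.07, adjusted p = 0.042), a call that held in 2 of 12 such fits. None of the 18 genes was called with the depth covariate, where the list's median was -0.23.

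Cell cycle genes fell in 13 of 22 and rose in none (median -0.63). The average added Ube2c, Ccna2, Nusap1, Cenpf, Plk1 and Birc5 to genes such as Mki67 and Stmn1. Ube2c, which ubiquitinates mitotic cyclins, lay between 6.15 and 6.82 (median 6.602) in DiI-positive and between 6.84 and 7.89 (median 7.42) in DiI-negative libraries. It fell by 0.84 (SE 0.19, adjusted p = 0.017) without overlap, and Ccna2, cyclin A2, by 0.48 (SE 0.11, adjusted p = 0.018), also without overlap. Both calls held whichever library was left out and with the depth covariate. The call of Nusap1, a spindle protein (-0.64 ± 0.16), ended without empty DiI-negative replicate 3 or curcumin DiI-negative replicate 2. Those of Cenpf (-0.63 ± 0.16), the mitotic kinase gene Plk1 (-1.09 ± 0.30) and Birc5, survivin (-0.57 ± 0.17), held in 8, 3 and 3 of the 12 fits that left out 1 library. With the depth covariate 10 of the 22 genes were called lower. Of 25 DNA replication genes 4 fell and none rose (median -0.25), a share of 16.0% against 12.1% of all genes. Only 1 of those 25 was called lower with the depth covariate. The letters TTTGAA of the cell cycle genes homology region, searched in the same way, were present in 7 of 17 cell cycle genes with a window and in 13.4% of the 9933. Because the list holds known cell cycle genes, that higher share is no result of these data. Of the 7, 5 were called lower, beside 13 of 22 in the whole cell cycle list. The window of Ube2c (chr2:164769679-164769928, plus strand) is shown because it is the added gene that holds these letters. The match, which is on the opposite strand, is in capitals.
Ube2c: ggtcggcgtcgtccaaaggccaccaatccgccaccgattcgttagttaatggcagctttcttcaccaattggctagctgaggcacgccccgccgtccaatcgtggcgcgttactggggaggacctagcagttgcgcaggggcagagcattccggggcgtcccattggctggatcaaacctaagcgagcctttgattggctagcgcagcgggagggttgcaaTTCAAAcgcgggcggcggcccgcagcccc

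Of 22 NF-kB subunits and targets, 1 rose and 6 fell, and the average added Ptgs2, Nfkbia and Nfkbib. Ptgs2, cyclooxygenase 2, ran from 7.70 to 8.78 in DiI-positive and from 8.90 to 9.79 in DiI-negative libraries and fell (-0.80 ± 0.17, adjusted p = 0.0097; 0.15 and 0.055 in the arms), with no overlap. Nfkbia, the inhibitor I-kappa-B alpha, fell by 0.31 (SE 0.07, adjusted p = 0.014), whereas the call of Nfkbib (-0.28 ± 0.08) held in 2 of the 12 fits that left out 1 library. Among 18 Toll-like receptors and adaptors 2 rose and 1 fell, a share called of 16.7% against 12.1% of all genes. Myd88, the adaptor shared by most of these receptors, ran from 11.60 to 12.12 in DiI-positive and from 12.16 to 12.55 in DiI-negative libraries. It fell by 0.57 (SE 0.10, adjusted p = 0.0053; 0.052 and 0.077 in the arms) and stayed called with the depth covariate. Tlr4, the endotoxin receptor, rose by 0.41 ± 0.11 (adjusted p = 0.032), called in 4 of the 12 fits that left out 1 library. Of 20 immediate early genes 5 fell, 4 of them added, including Zfp36, which destabilises cytokine mRNA (-0.33 ± 0.07, adjusted p = 0.013). The calls of Ier2, Btg2 and Nr4a1 among them held in 5, 4 and 2 of the 12 fits that left out 1 library.

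By size, the largest rises among added genes whose gates did not overlap were in Kcna2 (1.74 ± 0.37), Cd300e, Mrgpre (1.29 ± 0.27), Cd207 (1.29 ± 0.24), Klhl14 (1.18 ± 0.24) and Plod1 (1.09 ± 0.20). Kcna2, a voltage-gated potassium channel (chromosome 3, 107101146 to 107115005), stood near the same low level in all DiI-negative libraries (5.29 to 5.41) and between 5.89 and 8.03 (median 7.16) in DiI-positive ones. Every DiI-positive library was higher, which the choice of genes required, by amounts that varied (adjusted p = 0.011; 0.13 and 0.074 in the arms). Cd207, langerin, a lectin of Langerhans cells and some liver dendritic cells, ran from 9.55 to 10.41 (median 9.98) against 7.90 to 9.17 (median 8.99), with adjusted p of 0.0062 in the average and 0.058 and 0.085 in the arms. Plod1, a collagen lysyl hydroxylase, ran from 10.39 to 11.30 against 9.37 to 10.26 (adjusted p = 0.0057). The others of the 15 largest were P2ry13, Adgb, Serpinb1a, Adgre1, Itsn1, Slc7a8, Cd200, Cfp and Arhgef12, with rises from 0.78 to 1.00. P2ry13, an ADP receptor of myeloid cells and microglia, rose by 1.00 ± 0.22, and Cd200, the ligand of an inhibitory receptor on macrophages, by 0.92 ± 0.19. All 15 were called whichever library was left out, and Cd300e, Adgb and Arhgef12 also with the depth covariate.

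The largest falls chosen in the same way were in Adamts14 (-1.34 ± 0.24), Neurl1b (-1.28 ± 0.27), Rtn4rl1 (-1.18 ± 0.26), Tnfrsf9 (-1.08 ± 0.21), Tspan33 (-1.05 ± 0.19) and Mgl2. Adamts14, a procollagen protease (chromosome 10, 61197112 to 61273438), ran from 6.35 to 7.61 (median 6.93) in DiI-positive and from 7.84 to 8.73 (median 8.24) in DiI-negative libraries. Its adjusted p was 0.0043 in the average, 0.060 and 0.051 in the arms and 0.030 with the depth covariate. Tnfrsf9, the costimulatory receptor 4-1BB, ran from 7.09 to 8.29 (median 7.86) against 8.52 to 9.51 (median 8.75), with adjusted p of 0.0076 in the average and 0.077 and 0.081 in the arms. For both genes every DiI-positive library lay below every DiI-negative one, which the choice of genes required. Adam8, a leukocyte metalloprotease, fell by 1.02 (SE 0.21, adjusted p = 0.0087), and Slc7a5, a chain of the large neutral amino acid transporter, by 0.93 (SE 0.20, adjusted p = 0.013), whereas Slc7a8, which pairs with the same heavy chain, rose by 0.93 ± 0.20 (adjusted p = 0.011). Racgap1, Txk, Foxred2, Angptl2, Apol7e, Ube2c and Slco3a1 completed the 15, with falls of 0.82 to 0.99. Other than Mgl2, all were called whichever library was left out, and Adamts14, Adam8 and Ube2c also with the depth covariate.

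A further 4 added genes were picked with their values in view, because they were highly expressed and fell, so they do not describe actin genes as a group. Actb, beta-actin, ran from 15.04 to 15.58 in DiI-positive and from 15.46 to 15.91 in DiI-negative libraries (-0.41 ± 0.09, adjusted p = 0.013). Pfn1, profilin, fell by 0.27 (SE 0.06, adjusted p = 0.016), as did Arpc2, a subunit of the Arp2/3 complex (-0.28), and Capzb, a filament capping subunit (-0.27). The 4 calls held whichever library was left out, and none was kept with the depth covariate.

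Of the 15 genes called in an arm and lost in the average, the 5 with the smallest arm p were Hras, Pbld2, Zfp867, Pcyt2 and Tmco6. In each the arms pointed in opposite directions or 1 arm was near 0. Hras, a small GTPase, was at -0.66 in the curcumin arm (adjusted p = 0.019) and 0.09 in the empty arm, which gave -0.29 ± 0.09 in the average (adjusted p = 0.056). Pcyt2, which makes the head group donor of phosphatidylethanolamine, was at -0.50 in the curcumin arm (adjusted p = 0.033) and 0.01 in the empty arm (average -0.24 ± 0.08, adjusted p = 0.060). For these genes too the difference between the arms did not pass (adjusted p of 0.999 or more over all genes).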

How the data were processed

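RNA of sorted liver cells was amplified from low input and sequenced, in 12 libraries of 4 groups. The authors deposited a log2 value per gene and library. The submitters' processing notes name STAR 2.4.0d, DESeq2 1.8.1 and GRCm38. For the counter, annotation and transform the sources used here give nothing. Values run from -3.62 to 19.4. Differences of genes with few reads may be understated, and read depth is unknown. The relative depth index came from the lowest values of 299 genes read in 1 library each. These were 2 genes for curcumin DiI-positive replicate 1 and 7 for curcumin DiI-positive replicate 2. The other DiI-positive libraries had 12 to 45 such genes and the DiI-negative ones 14 to 89.

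Genes with a mean of at least 4 were fitted with limma 3.58.1 in R 4.3.3 (a mean per group, eBayes with trend, Benjamini-Hochberg, threshold 0.05), after tests on simulated data. Errors beside differences are standard errors (n = 6 against 6). Symbols and coordinates are from GENCODE M21 on GRCm38. The 45 gene lists and the genes of interest were chosen with earlier results of these data known. Genes followed by rule were the 10 largest rises and falls of the average and the 15 largest called in neither arm, all without overlap. The rules also took up to 5 genes called in an arm only and up to 4 per list with the smallest p. Itgax, H2-Ab1, Cd74 and Ptprc were taken in any case. Not all genes followed by rule are named above. Other list members that the average added were named after their values were seen. Alternatives were other filters, scaling, weights, a replicate block, an additive fit, depth and left-out libraries. Some members of the lists are counted but not reported here by name.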

Additional observations from a re-analysis of the deposited data

How the results depend on the processing

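The averaged contrast called 1722 genes and 1103 in neither arm. With the depth index as a covariate these were 432 and 273, and the cause was not tested. All other alternatives left both counts within 1.5 times: the average gave 1247 with no filter to 1915 without curcumin replicate 3 of both gates, and the added count 877 with no filter to 1242 in the additive fit. The genes behind the added count changed more: 627 of the 1103 stayed called in the average with no filter and 762 with the replicate block. Without 1 library the average ran from 1149 to 2244 and the added count from 770 to 1022; 970 of the 1722 and 381 of the 1103 stayed called in the average without any 1 library. The arms moved more. The empty arm gave 263 genes with no filter, 789 with library weights, 141 with the depth covariate and 666 without curcumin replicate 3 of both gates, and 85 to 659 without 1 library. The curcumin arm gave 248, 74 and 706 with no filter, depth and those libraries left out, 40 when its 6 libraries were fitted alone, and 114 to 1088 without 1 library. The difference between the arms called 0 genes, 1 without curcumin replicate 3 of both gates and 0 to 2 without 1 library. Deviations of same-numbered libraries correlated at r from 0.0037 to 0.328, all above 0, and 4 of the 6 DiI-positive libraries correlated best with their own number. The numbers were not taken as pairs, since r was over 0.1 in 1 of the 6 cases, but these values do not settle whether they are pairs. With the replicate block the average called 1555 genes and added 966. Gene and list results above come from the fit without that block. Of 243 called genes that were followed, 183 stayed called without each library in turn and none changed sign. Of the alternatives, the depth covariate left the fewest added genes called in the average, 66 of 1103. The median size of the added genes was 0.42 with it and 0.47 without. The standard error of the average rose 1.31-fold in the median gene. Gate and depth cannot be fully told apart, and the part of depth in these calls was not tested.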
